A study of Rattus norvegicus with 33 samples.

Results

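The oxidative phosphorylation subunits are the nuclear genes that code for the 5 multi-protein complexes of the inner mitochondrial membrane. They were taken by symbol alone, as rows with a single gene symbol that starts with Nduf followed by a, b, c, s or v and a digit, that is Sdha, Sdhb, Sdhc or Sdhd, or that starts with Uqcr, with Cox4 to Cox8 or with Atp5. For a gene with several rows the brightest was used. The choice gave 76 of the 14506 named genes: 33 for complex I, 4 for complex II, 7 for complex III, 16 for complex IV and 16 for complex V. Of these, 69 are standard subunits. The other 7 are Cox4i2, Cox6b2 and Cox8c, which are forms best known from other tissues, Cox7a2l, an assembly partner of complexes III and IV, Atp5if1, the inhibitor of the ATP synthase, and Cox6c-ps1 and Ndufs6-ps1, which are named as pseudogenes and whose signals may share probes with their parent genes. Ndufa4 is counted here with complex I by its symbol, although its protein is now placed in complex IV. Cox6b1 and Cox7a1 were not analysed here.

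RNA from the soleus, a slow postural muscle of the calf, of 33 female Wistar rats was hybridized to 33 Affymetrix arrays. Each of the 11 groups had 3 rats with an array of their own. In the first experiment the spinal cord was cut completely between thoracic vertebrae 9 and 10 at 9 weeks of age (SCI) or the surgery was a sham (Sham-SCI). All transected rats had surgery on the left hindlimb 14 weeks later, in which the distal tendon of the gastrocnemius was cut (tenotomy). A stimulator was implanted in that surgery in the SCI-ES rats only, and the muscle of the SCI group was taken 21 days after it. The 3 SCI-ES groups then received electrical stimulation (ES) of the hindlimb for 1 hour per day over 1, 3 or 7 days, from 16 weeks after transection. No such second surgery is described for the Sham-SCI rats, which the labels give as without GA, so SCI against Sham-SCI holds the transection, this surgery and the tenotomy together. SCI-ES against SCI holds the implanted device together with the stimulation. In the second experiment, rats of 22 to 23 weeks with an intact cord had the distal insertion of the left gastrocnemius cut, or a sham operation without the cut (Sham-GA), and were studied 1, 3 or 7 days later. The labels call the cut an ablation (GA), although the muscle was not taken out, and it leaves the soleus to carry more load. Muscle is a mixture of cells, and a lower signal from fewer muscle fibers cannot be told apart from less mRNA per fiber.

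Electrons from NADH enter the respiratory chain at complex I and those from succinate at complex II, pass through complex III to complex IV, and there reduce oxygen to water. The protons pumped on the way return through complex V, the ATP synthase, which makes ATP. Slow fibers such as those of soleus are rich in mitochondria, and transcription of the subunit genes is known to respond to the coactivator PGC-1 alpha together with the estrogen-related receptors, the nuclear respiratory factors and GABP. Several complex IV subunits exist as a form found in most tissues (Cox6a1, Cox8a) and a form of heart and skeletal muscle (Cox6a2, Cox8b).

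In the second experiment the general forms Cox8a and Cox6a1 did not follow the other members, with correlations to their mean of -0.33 and -0.65, while the muscle forms Cox8b and Cox6a2 did, with 0.88 and 0.87. Promoters are therefore shown for Cox8a, a general form, and for Cox8b and Cox6a2. No RefSeq promoter was found for Cox6a1. Cox6b2 at -0.35, Cox4i2 at -0.33 and Cox7a2l at 0.17 did not follow the others in the second experiment either. In the first experiment Cox8a and Cox6a1 had correlations of -0.06 and 0.21. There Cox8b had 0.84, and Cox6a2 followed the others less closely, at 0.50. Each run is RefSeq sequence of rat build GRCr8, read 5′ to 3′ on the strand of the gene, from 250 bases before the annotated start to 50 after it, which gives 300 bases. Capitals mark matches on either strand to CCGGAAG (an ETS site as bound by GABP), GCATGCGC (the core of a nuclear respiratory factor 1 site), AAGGTCA (the core of an estrogen-related receptor site), CAGCTG (a muscle E-box), GGGCGG (a GC box) and the MEF2 motif. A match on the other strand appears as its reverse complement.
Cox8a, chr1:213833574-213833873, minus strand: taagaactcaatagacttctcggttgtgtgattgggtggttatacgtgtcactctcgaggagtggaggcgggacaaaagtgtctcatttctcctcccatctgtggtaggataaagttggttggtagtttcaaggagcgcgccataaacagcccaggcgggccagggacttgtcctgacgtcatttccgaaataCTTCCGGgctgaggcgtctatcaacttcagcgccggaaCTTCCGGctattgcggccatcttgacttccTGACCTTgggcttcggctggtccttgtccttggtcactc
Cox8b, chr1:205408224-205408523, minus strand: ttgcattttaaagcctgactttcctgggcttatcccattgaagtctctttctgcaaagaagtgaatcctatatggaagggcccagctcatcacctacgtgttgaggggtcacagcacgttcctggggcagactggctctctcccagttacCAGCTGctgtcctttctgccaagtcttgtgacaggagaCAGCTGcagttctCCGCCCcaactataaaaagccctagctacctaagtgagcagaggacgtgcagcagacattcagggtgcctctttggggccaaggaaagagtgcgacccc
Cox6a2, chr1:192219667-192219966, minus strand: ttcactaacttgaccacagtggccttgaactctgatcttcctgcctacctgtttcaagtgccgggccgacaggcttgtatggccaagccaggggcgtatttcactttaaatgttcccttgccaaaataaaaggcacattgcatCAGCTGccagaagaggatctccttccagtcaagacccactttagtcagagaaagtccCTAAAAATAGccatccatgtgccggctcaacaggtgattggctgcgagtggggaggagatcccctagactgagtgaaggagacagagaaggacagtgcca
The window of Cox8a held 2 matches to CCGGAAG and 1 to AAGGTCA. That of Cox8b held 2 matches to CAGCTG and 1 to GGGCGG, and that of Cox6a2 held 1 match to CAGCTG and 1 to the MEF2 motif. Genes that followed the other members held the sites of Cox8a too. Sdhd (correlation 0.93) had 2 matches to CCGGAAG and 1 to AAGGTCA, and Cox4i1 (0.89) had 2 to CCGGAAG. Sdha (0.91) had no match to either. RefSeq promoters were found for 66 of the 76 genes. CCGGAAG was present in 20 of the 66 (30.3%), against 9.29% of all 27212 promoters of the same length. GCATGCGC was present in 9 (13.6%, against 2.69%) and AAGGTCA in 10 (15.2%, against 4.4%). For CAGCTG the shares were 16.7% and 15.2%, for GGGCGG 43.9% and 35.1%, and for the MEF2 motif 1.52% and 0.61%. In Atp5mc2, Atp5me, Atp5po and Ndufa11 matches to GCATGCGC on the opposite strands overlapped, and each promoter was counted once. A match describes the letters of this window only.

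All values are log2 expression values, and all differences are log2 ratios. The median difference over all genes tested lay between -0.03 and 0.02 in each of the 15 comparisons made. The slow myosin gene Myh7 was bright in every soleus, between 13.17 and 13.66 in the 18 arrays of the second experiment and between 13.31 and 13.65 in the Sham-SCI rats, and lay between 11.27 and 13.56 in the transected rats. One array in each of the 2 earlier sham groups stood apart. Sham-GA 3 days replicate 2 correlated at 0.971 and Sham-GA 1 day replicate 1 at 0.973 with the mean of its group over all genes, against 0.981 to 0.996 for the other arrays. Counts of called members that rest on them are given with and without them. The form pairs and the lists of other genes are given with all arrays only.

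Within each experiment the 76 genes went up and down together from animal to animal. The median Pearson correlation of a gene with the mean of the other 75 members was 0.91 over the 18 arrays of the second experiment and 0.90 over the 15 of the first. In the second experiment 58 of 76 genes had a correlation above 0.8 and 4 had one below 0, with Cox6a1 lowest at -0.65. In the first experiment 51 were above 0.8 and 3 below 0, with Atp5if1 lowest at -0.44. These genes share the arrays and their normalization, and the values are descriptive. The mean of the members, each taken relative to its own mean over the experiment, was 0.05, -0.43 and -0.02 in the 3 SCI rats and -0.41, 0.21 and 0.04 in the 3 SCI-ES rats at 1 day. SCI replicate 2 and SCI-ES 1 day replicate 1 were thus the lowest of the first experiment.

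**Figure D1:**
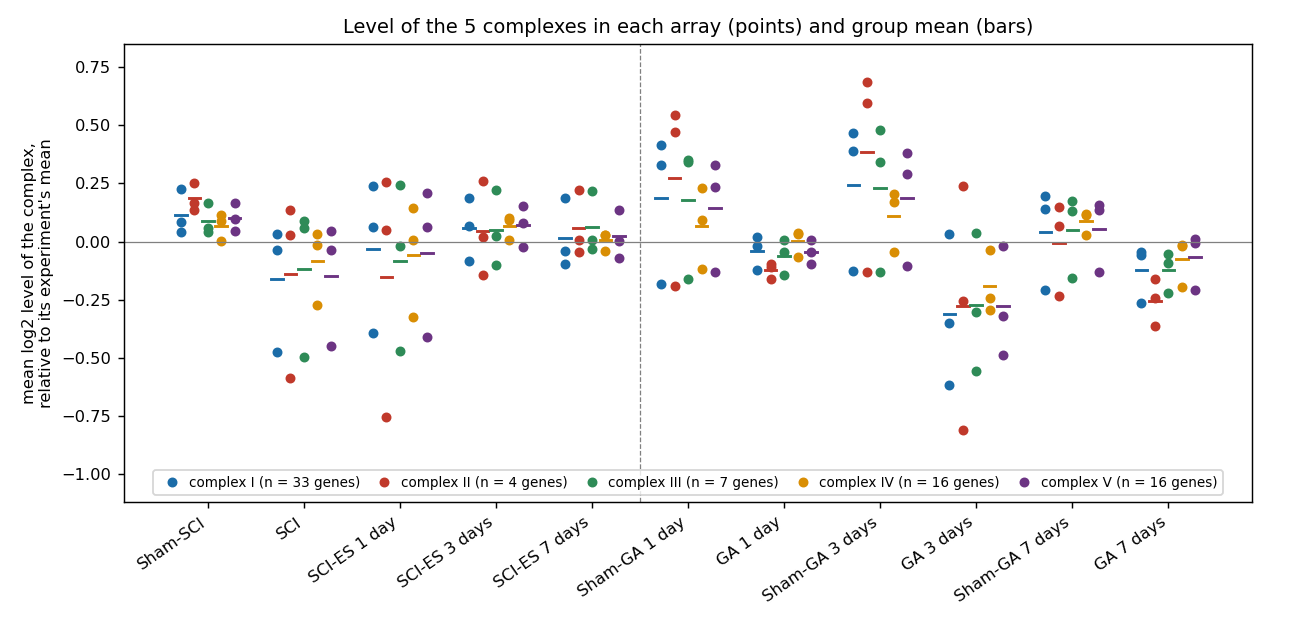
Mean log2 level of each complex in each array, relative to the mean of the same genes over the arrays of that experiment (points, colored by complex), with the group mean as a bar, for the 11 groups; the dashed line divides the 2 experiments. The 5 complexes go up and down together from animal to animal, by unequal amounts, and the GA 3 days rats have the lowest group means. The lowest GA 3 days level is -0.81 for complex II and -0.29 for complex IV.

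The first question was how long-standing paralysis left these genes. In SCI soleus 71 of the 76 genes had a lower mean than in Sham-SCI soleus, as did 53.8% of all genes, and the median log2 difference was -0.23, against -0.02 over all genes tested. None of the 76 passed the test in limma at an adjusted p under 0.05, where 68 of 14456 genes did (0.47%). The lowest adjusted p of a member was 0.119. At an unadjusted p under 0.05 there were 9 members, all lower, against 8.17% of all genes that were lower at that level. In 24 members every SCI array lay below every Sham-SCI array, which was the case for 13.1% of all genes. The complexes were close to each other, with medians of -0.25 for complex I, -0.29 for II, -0.20 for III, -0.16 for IV and -0.25 for V.

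Complex I, the entry point for NADH, held 13 of the 24 genes whose groups did not overlap. Ndufa11, a subunit of the membrane arm, measured 11.82, 11.71 and 11.78 in Sham-SCI rats and 11.28, 11.12 and 11.32 in SCI rats. All 3 SCI values were lower and close to one another, with a difference of -0.53 ± 0.16 (SE), adjusted p = 0.152. Ndufv3, a small subunit of the NADH-binding module, had the highest difference of the complex, 0.11 ± 0.15, but a second row of the same gene gave -0.37, the only member whose rows differed in sign here. The 6 core subunits among the members, the part of the enzyme kept from bacteria to mammals, ranged from -0.43 for Ndufs8 to -0.15 for Ndufv1.

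In complex II, which is also succinate dehydrogenase of the citric acid cycle, Sdhb, the iron-sulfur subunit, measured 11.65, 11.69 and 11.67 in Sham-SCI rats and 11.41, 10.76 and 11.18 in SCI rats. The groups did not overlap, with a difference of -0.55 ± 0.24 and an adjusted p of 0.319. The difference was -0.17 for Sdha, the flavoprotein, -0.22 for Sdhc and -0.36 for Sdhd, the membrane anchors, and those groups overlapped. In complex III the values ran from -0.37 for Uqcrq to -0.03 for Uqcrb, both small subunits.

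Cox5b, a zinc-binding subunit of complex IV, had the lowest difference of all members. It measured 10.99, 11.28 and 11.17 in Sham-SCI rats against 10.97, 10.08 and 10.69 in SCI rats. The second SCI rat was far below and the first only just below the sham values, and the difference was -0.57 ± 0.21, adjusted p = 0.233. Cox6b2, known from testis, stood at the other end with 0.10. In complex V the lowest was Atp5mg, subunit g of the membrane part, at -0.50 ± 0.20 (adjusted p = 0.274), and the highest was Atp5f1b, the catalytic beta subunit, at -0.10.

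The size of this difference depended on SCI replicate 2. Without it the median over the members was -0.09, with 56 of 76 genes below 0. Pooling all 12 transected rats against Sham-SCI gave a median of -0.13 with 68 genes below 0 (55.2% of all genes). No member passed the test in limma there, where 2.53% of all genes did, and 3 members had an unadjusted p under 0.05 (18.4% of all genes). The lowest adjusted p was 0.0906, for Ndufa11 at -0.43 ± 0.13. Ndufa5, a subunit of the peripheral arm, had the same difference, -0.43 ± 0.17, with an adjusted p of 0.198.

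Around these genes, fiber type markers differed more. All 12 slow fiber markers were lower in SCI soleus, with a median of -1.03, and all 11 fast fiber markers were higher, with a median of 1.08; none of the 23 passed the test. All 12 fibroblast markers were higher, with a median of 1.31. The mean level of the slow fiber list was 0.49 to 0.98 in Sham-SCI rats and -0.45 to -0.03 in SCI rats, without overlap. The mean level of the fast fiber list was -2.45, 0.59 and -0.67 in Sham-SCI rats and 0.48, -0.32 and 0.46 in SCI rats. These groups overlapped, and 1 Sham-SCI rat was far below all others. The level of 7 markers shared by all muscle fibers was -0.01 to 0.05 in Sham-SCI rats and -0.08 to 0.04 in SCI rats, and no marker was at 0. The part of these shifts in the member values was not tested.

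Other mitochondrial lists lay on the same side. In SCI soleus 9 of 10 citric acid cycle genes were lower, with a median of -0.19, as were 12 of 13 other respiratory chain genes, with a median of -0.22. Of 30 assembly factors 29 were lower, with a median of -0.27, and 1 passed the test. This was Coa3, needed to build complex IV, which measured 9.61, 9.47 and 9.59 in Sham-SCI rats and 8.87, 8.94 and 8.74 in SCI rats and fell by 0.71 on the log2 scale (adjusted p = 0.0139). Of 16 regulators linked to PGC-1, 12 were lower, with a median of -0.39 and no gene past the test. With all transected rats pooled, Esrrg and Esrrb, estrogen-related receptors, fell by 1.46 (adjusted p = 0.0196) and by 0.56 (adjusted p = 0.0331).

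**Figure D2:**
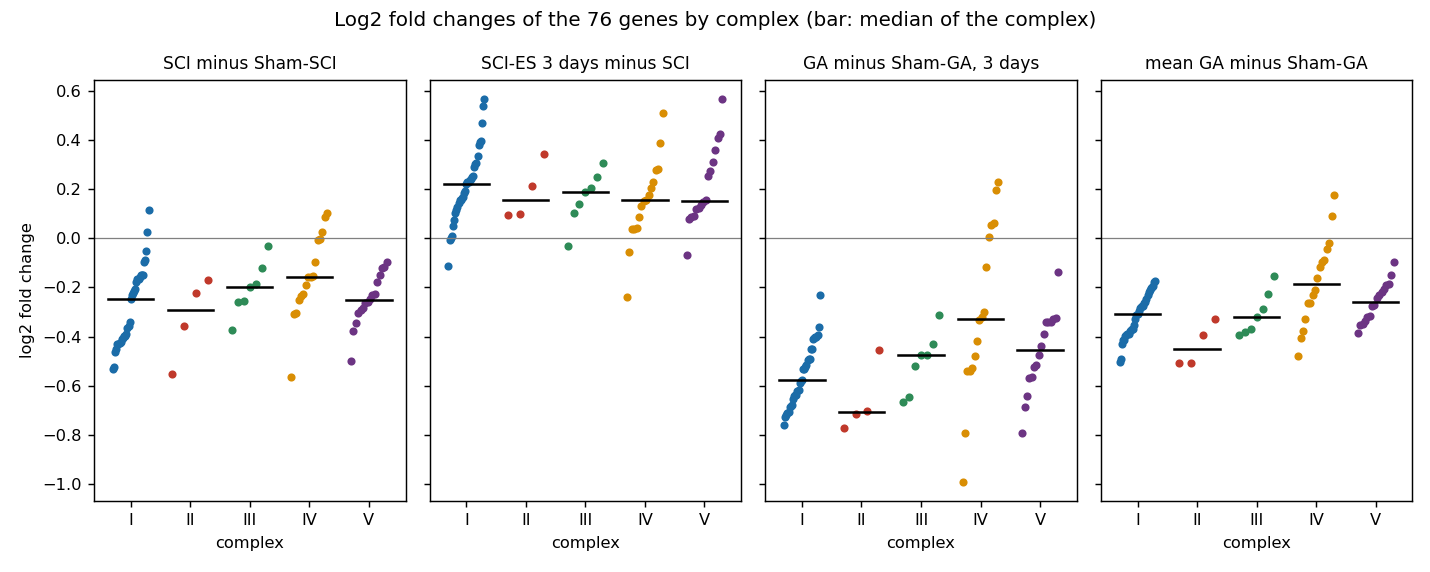
Log2 fold change of each of the 76 genes (points) by complex, with the median of the complex as a bar, for SCI against Sham-SCI, SCI-ES 3 days against SCI, GA against Sham-GA at 3 days, and the mean of the GA effects at 1, 3 and 7 days. Points lie mostly below 0 in the first and in the last 2 panels and mostly above 0 under ES at 3 days, and complex IV has the widest range.

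Electrical stimulation was compared with SCI at each time, with the same 3 SCI arrays as the comparison above. After 1 day the median over the members was 0.05, with 52 of 76 genes above 0. It was 0.18 after 3 days, with 70 above 0, and 0.17 after 7 days, with 69 above 0. Of all genes, 49.1%, 48.3% and 51.9% were above 0 at these times. No gene of any kind passed the limma test at 1, 3 or 7 days (0% in each). At an unadjusted p under 0.05 there were 5 members at 1 day, 8 at 3 days and 1 at 7 days, against 7.28%, 3.07% and 2.84% of all genes.

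At 3 days all 8 such members were higher, against 1.38% of all genes that were higher at that level. In 10 members every SCI-ES 3 days array lay above every SCI array (3.55% of all genes). Among them was Atp5mc1, which codes for subunit c of the rotor of the ATP synthase. It measured 12.07, 10.91 and 11.96 in SCI rats and 12.25, 12.14 and 12.24 in SCI-ES 3 days rats. The stimulated rats lay close together and the SCI group held 1 low rat, so the difference was 0.57 with a standard error of 0.34 (adjusted p = 1). Ndufb2, an accessory subunit of complex I, had the highest difference, 0.57 ± 0.34 at 3 days after 0.72 ± 0.34 at 1 day. Cox5b, the lowest in SCI, was 11.13, 10.95 and 11.20 at 3 days, a difference of 0.51 ± 0.21 from SCI.

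The complexes again had similar medians at 3 days, 0.22 for I, 0.16 for II, 0.19 for III, 0.15 for IV and 0.15 for V. At 7 days the medians were 0.19, 0.17, 0.22, 0.07 and 0.18. There, 4 members lay apart on the high side (4.29% of all genes) and 1 on the low side (3.29%). These differences turned on SCI replicate 2. Without that array the median was -0.09 at 1 day, 0.03 at 3 days and 0.02 at 7 days, with 48 and 44 of 76 genes above 0 at the later times. Without SCI-ES 1 day replicate 1 the median at 1 day was 0.22, and without replicate 2 it was -0.08. Between 1 and 7 days of stimulation the median was 0.08 with 54 genes above 0 (-0.08 without SCI-ES 1 day replicate 1), and no gene passed the test (0%, with 12.1% at an unadjusted p under 0.05).

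Markers of other cells differed in these arrays as well. At 3 days all 9 endothelial markers were higher than in SCI soleus, with a median of 0.47, and their mean level was 0.34 to 0.60 in SCI-ES 3 days rats against -0.24 to 0.30 in SCI rats, without overlap. At 1 day all 9 were lower, with a median of -0.42 and overlapping levels of -0.90 to -0.02. All 9 neutrophil markers were higher at 1 day, with a median of 0.53 and a mean level of 0.01 to 0.82 against -0.24 to -0.09 in SCI rats. Of the 12 slow fiber markers 11 were higher at 3 days, with a median of 0.34, but their level of -0.66 to 0.71 overlapped with that of the SCI rats. No gene passed the test, no marker was at 0, and the part of these cells and fibers in the member values was not tested.

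In the second experiment nearly all subunits had lower means in GA than in Sham-GA soleus. This direction follows the deposited labels of the GA and Sham-GA arrays, which were not checked by another measure. It is opposite to the one the study gives for genes related to oxidative phosphorylation. The study's statement rests on genes that passed its own test and a 1.5 fold minimum. The values here are means of this set of 76 genes, without such a minimum. Averaged over 1, 3 and 7 days, 74 of 76 genes were lower in GA soleus (54.2% of all genes), with a median log2 difference of -0.28 against -0.01 over all genes. No gene passed the limma test with all arrays (0%), and the lowest adjusted p of a member was 0.166. At an unadjusted p under 0.05 there were 57 members, all lower, where 11.3% of all genes were lower at that level. The medians were -0.31 for complex I, -0.45 for II, -0.32 for III, -0.19 for IV and -0.26 for V, and the count under an unadjusted 0.05 was 25 of 33, 4 of 4, 6 of 7, 8 of 16 and 14 of 16.

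The difference was of unequal size over time. The median was -0.20 at 1 day with 67 genes below 0, -0.52 at 3 days with 71 below 0, and -0.15 at 7 days with 69 below 0. Of all genes, 51.8%, 55.2% and 49.8% were below 0 at these times. At 1 day 0.0554% of all genes and no member passed the test, and 5 members had an unadjusted p under 0.05, all lower (9% of all genes). At 3 days no gene passed (0%), and 59 members had an unadjusted p under 0.05, all lower (8.19% of all genes). At 7 days no gene passed (0%) and no member reached an unadjusted 0.05, which 2.63% of all genes did. In 6 members at 1 day, 15 at 3 days and 6 at 7 days every GA array lay below every Sham-GA array, against 11.1%, 7.64% and 6.35% of all genes. The GA effect at 7 days minus that at 1 day had a median of 0.06 over the members (-0.01 with each array centred on its median), and no gene passed that test either (0%, with 8.26% at an unadjusted p under 0.05).

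At 3 days the lower level took in all 33 genes of complex I, all 4 of II, all 7 of III and all 16 of V, and 11 of 16 of IV. The medians were -0.58, -0.71, -0.48, -0.46 and -0.33 in that order. In complex I, Ndufa9, a subunit at the joint of its arms, measured 12.05, 11.17 and 11.87 in Sham-GA 3 days rats and 10.98, 11.30 and 10.54 in GA 3 days rats. The second rat of each group went against the rest, and the difference was -0.76 ± 0.23. The 6 core subunits lay between -0.72 for Ndufs3 and -0.49 for Ndufv2. Ndufs1, the largest of the core subunits, was lowest of complex I over the 3 times, at -0.51 ± 0.18 (adjusted p = 0.193), and Ndufa7, an accessory subunit, was highest at -0.17.

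All 4 genes of complex II had a lower mean in GA than in Sham-GA soleus at each of the 3 times. Sdha measured 11.83, 10.92 and 11.81 in Sham-GA 3 days rats and 10.87, 11.47 and 10.11 in GA 3 days rats. The low sham rat and the high GA rat made the groups overlap. At 7 days Sdha was 11.23, 11.17 and 10.80 after sham surgery and 10.65, 10.66 and 10.47 after GA, without overlap. Sdhd showed the same at 1 day, with 10.86, 11.59 and 11.50 after sham surgery and 10.76, 10.73 and 10.71 after GA, a difference of -0.58 ± 0.23 (adjusted p = 0.298). The GA rats were nearly identical and the sham rats ranged widely. Over the 3 times the difference was -0.51 ± 0.18 for Sdha (adjusted p = 0.191), -0.40 ± 0.16 for Sdhb, -0.33 ± 0.14 for Sdhc and -0.51 ± 0.13 for Sdhd (adjusted p = 0.166).

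**Figure D3:**
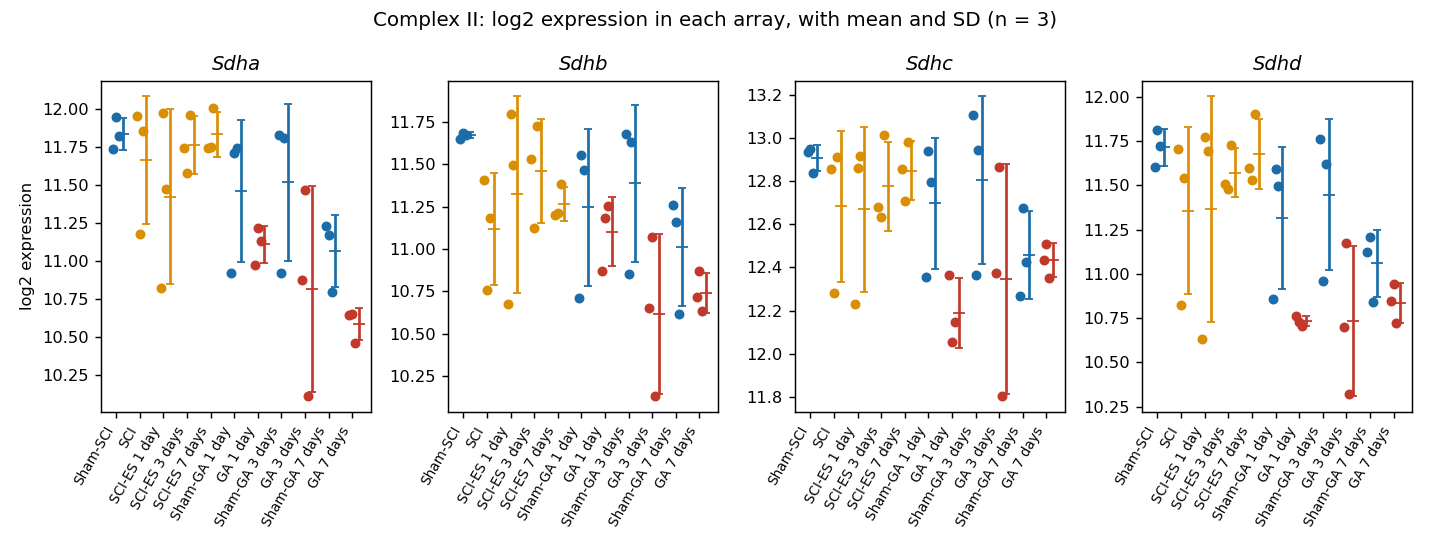
Log2 expression of Sdha, Sdhb, Sdhc and Sdhd in each array (points) with the group mean and SD (n = 3) for the 11 groups; blue is sham, orange is SCI with or without ES, red is GA. The GA 1 day and GA 7 days arrays of Sdha and Sdhd lie within narrow ranges, and 1 array of Sham-GA 1 day and 1 of Sham-GA 3 days fall to the GA level in all 4 genes.

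Uqcrfs1, the Rieske iron-sulfur protein of complex III, was lowest of its complex over the 3 times at -0.39 ± 0.14 (adjusted p = 0.197), and Uqcrb highest at -0.15. Uqcrc1, a core protein, measured 12.01, 11.38 and 11.94 in Sham-GA 3 days rats and 11.11, 11.40 and 10.89 in GA 3 days rats, with 1 sham rat at the level of the highest GA rat. In complex V, Atp5mc1 at 3 days was 11.86, 11.17 and 11.74 after sham surgery and 10.60, 11.10 and 10.69 after GA. Every GA array was lower, if only just for the second one, and the difference was -0.79 ± 0.23. At 7 days Atp5mc1 differed by -0.01 ± 0.23. Atp5me, subunit e, was lowest of complex V over the 3 times at -0.39 ± 0.17, and Atp5if1, the inhibitor, highest at -0.10 ± 0.06.

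Complex IV was the least uniform. Cox8b, its muscle form of subunit 8, measured 12.11, 11.67 and 12.15 in Sham-GA 3 days rats and 10.82, 11.57 and 10.57 in GA 3 days rats. No GA value reached the sham range, and the difference of -0.99 ± 0.28 was the lowest of all 76 genes (adjusted p = 0.288). Cox5b measured 10.81, 10.39 and 10.78 after sham surgery and 9.74, 10.16 and 9.71 after GA, again apart, with -0.79 ± 0.20. Cox8a, the general form, went from 11.54, 11.64 and 11.51 to 11.67, 11.44 and 11.75, and Cox6a1 from 10.16, 10.71 and 10.18 to 10.71, 10.17 and 10.86. In these genes the second rat of each group again went against its group, now in the opposite sense. The 5 genes of the set with a mean above that of Sham-GA at 3 days were all in complex IV, and Cox6a1 was the highest at 0.23 ± 0.18.

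**Figure D4:**
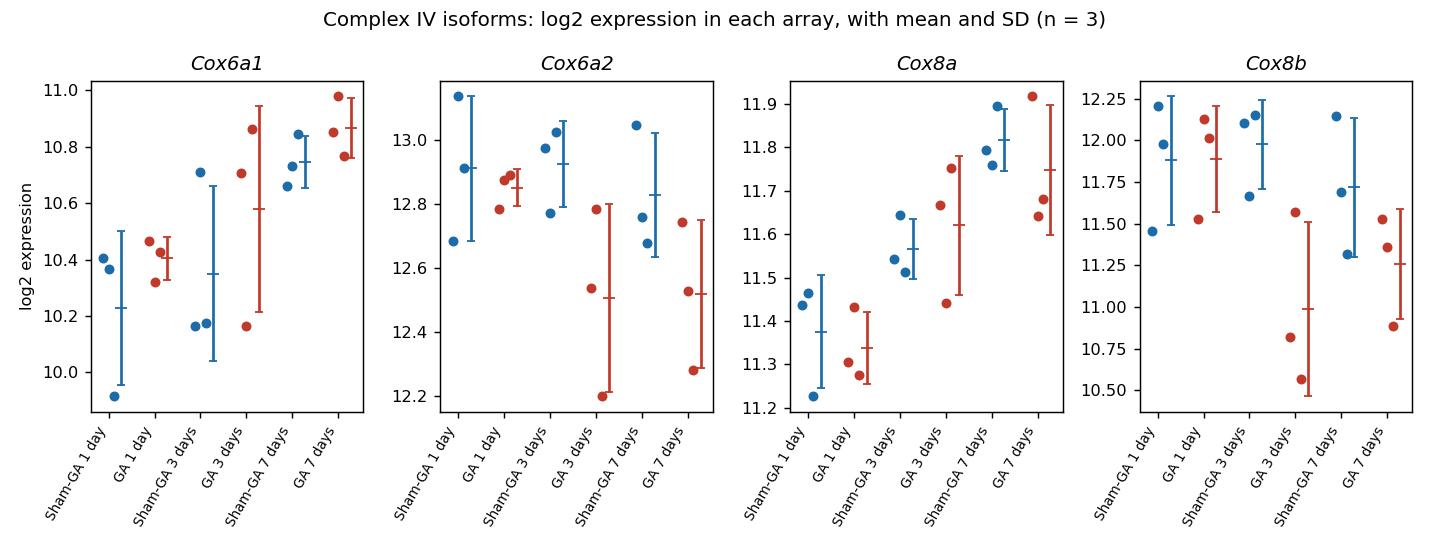
Log2 expression of the general forms Cox6a1 and Cox8a and the muscle forms Cox6a2 and Cox8b in each array of the second experiment (points), with group mean and SD (n = 3); blue is Sham-GA and red is GA, and each panel has its own axis. Cox8a and Cox6a1 have their highest group means at 7 days in both sham and GA rats, while Cox8b is lowest in GA 3 days rats.

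The difference between 2 forms within an array removes only what both forms share. Cox8a, Cox6a1, Cox4i2 and Cox7a2l did not follow the other members in this experiment. Pairs with any of these therefore still hold the change that most members share. Over 7 pairs of forms, the mean GA effect on the difference was tested by an exact permutation of the GA and sham labels within each day, with 8000 arrangements, two-sided, for which the smallest possible p is 0.00025. For Cox6a1 minus Cox6a2 the GA effect was 0.44 (exact p = 0.0262, adjusted over the 7 pairs 0.184), with 0.24, 0.65 and 0.43 at 1, 3 and 7 days. For Cox8a minus Cox8b it was 0.46 (exact p = 0.061, adjusted 0.214), with -0.05, 1.04 and 0.39. Both pairs thus shifted toward the general form in the mean without passing the test after adjustment. The apart sham arrays were kept in these tests. Cox8a minus Cox8b was -0.02 in Sham-GA 3 days replicate 2, against -0.56 and -0.64 in its group. It was -0.02 in Sham-GA 1 day replicate 1, against -0.75 and -0.75. Cox6a1 minus Cox6a2 was also highest of its group in both apart arrays. Cox4i2 minus Cox4i1 had 0.30 (exact p = 0.214, adjusted 0.361), and Cox7a2l minus Cox7a2 had 0.11 (exact p = 0.31, adjusted 0.361). The 3 pairs among Atp5mc1, Atp5mc2 and Atp5mc3, which code for the same mature subunit c, lay between -0.14 and 0.15.

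The size of the GA difference depended on the arrays that stood apart. The mean of the members, relative to the experiment, was 0.41, -0.11 and 0.33 in Sham-GA 3 days rats and -0.31, 0.02 and -0.53 in GA 3 days rats. In Sham-GA 1 day rats it was -0.16, 0.36 and 0.27, and in GA 1 day rats -0.11, 0.01 and -0.02. Both apart arrays were also the lowest of their groups in this mean, so leaving them out makes the difference larger by construction. Without Sham-GA 3 days replicate 2, 44 of 76 members passed the limma test at 3 days, all of them lower, where 4.44% of all genes passed and were lower and 10.7% passed in either direction. They were 21 of 33 in complex I, 3 of 4 in II, 5 of 7 in III, 5 of 16 in IV and 10 of 16 in V. The median was -0.70. With any other array of the 2 groups left out, no gene passed at 3 days (0% each time). Without GA 3 days replicate 2, the GA rat with the highest member mean, the median was -0.68.

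The fit without Sham-GA 3 days replicate 2 was picked out for single genes after the values were seen. With all arrays no gene passed at 3 days (0%). In the fit without this array Cox8b fell by 1.14 (SE 0.31, adjusted p = 0.0383) and Sdhb by 1.04 (SE 0.28, adjusted p = 0.0348). Ndufa9 fell by 1.02 (SE 0.22, adjusted p = 0.0215). Atp5mc1 fell by 1.00 (SE 0.24, adjusted p = 0.0251) and Sdha by 1.00 (SE 0.31, adjusted p = 0.0494). With the same array left out, 34 members were called lower in the mean over the 3 times (6% of all genes). Without Sham-GA 1 day replicate 1, 24 were (3.57% of all genes). With any other single array left out, no member was called in that mean (at most 0.0554% of all genes). With both apart sham arrays left out, a choice made after the values were seen, 58 members were lower at 3 days (7.98% of all genes). In that setting 6 were lower at 1 day (2.81%) and 63 in the mean over the 3 times (12.1%), and none was higher in any of these comparisons. The 13 members not called in that last mean include 8 of the 16 genes of complex IV, among them Cox6a1, Cox8a, Cox7a2l and Cox4i2, and also Atp5if1.

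**Figure D5:**
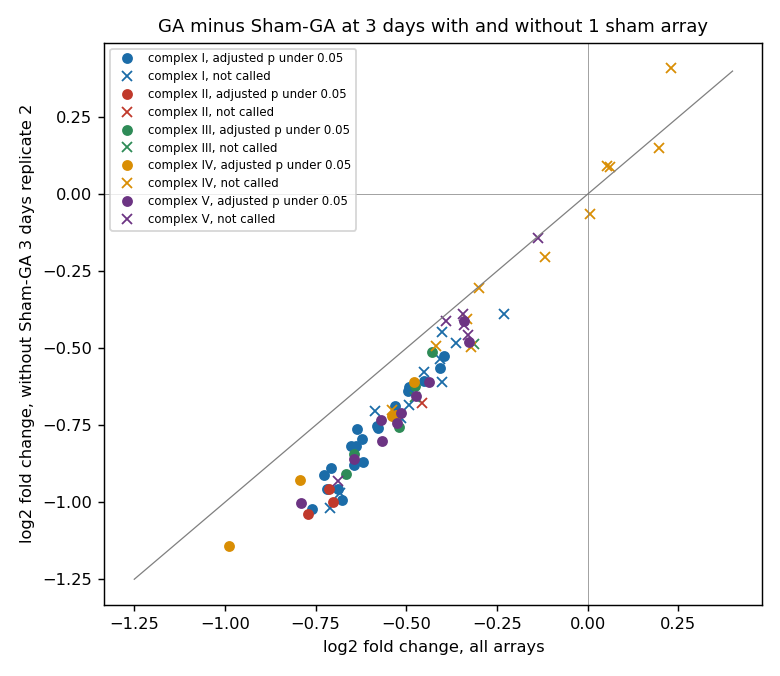
GA minus Sham-GA log2 fold change at 3 days with all arrays (horizontal axis) and without Sham-GA 3 days replicate 2 (vertical axis) for the 76 genes, colored by complex; dots passed the adjusted p threshold of 0.05 in the fit without that array, crosses did not, and the line marks equal values. Most points lie below the line, and 5 complex IV genes lie at or above 0 on the horizontal axis. With all arrays no gene passed that threshold.

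Markers of other cells moved in the same arrays. At 3 days all 12 macrophage markers were higher in GA than in Sham-GA soleus, with a median of 0.86, and all 12 fibroblast markers were higher, with a median of 0.95; none passed the test. The mean macrophage level was -1.07, 0.55 and -0.45 in Sham-GA 3 days rats and 0.53, 0.41 and 0.77 in GA 3 days rats. The mean fibroblast level was -1.05, 0.38 and -0.64 in the sham rats and 0.66, 0.29 and 0.23 in the GA rats. The sham rat with the low member mean was the one with macrophage and fibroblast levels inside the range of the GA rats. The 7 markers shared by all muscle fibers were all lower at 3 days, with a median of -0.26. At 1 day the mean neutrophil level was 0.63 to 1.39 in GA rats and -0.41 to 1.03 in Sham-GA rats, with overlap. No marker was at 0, and the part of these cells in the member values was not tested.

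The neighbors of the chain lay lower as well after GA, none past the test. At 3 days the median was -0.47 for the 10 citric acid cycle genes, all lower, and -0.43 for 13 other respiratory chain genes, 12 of them lower. It was -0.36 for 30 assembly factors, 29 of them lower. It was -0.41 for the 16 regulators linked to PGC-1, 12 of them lower. Among the regulators Perm1, a muscle protein that acts with PGC-1, was lowest at -1.78.

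The sham groups differed over time too. From 1 to 7 days after sham surgery 58 of 76 members had lower means (55.2% of all genes), with a median of -0.14 against -0.03 over all genes. Without Sham-GA 1 day replicate 1, an apart array, the median was -0.31, with 70 genes below 0. One member passed the test, where 10.3% of all genes did. Cox8a rose by 0.44 ± 0.11 (adjusted p = 0.0191), from 11.44, 11.46 and 11.23 at 1 day to 11.79, 11.76 and 11.90 at 7 days. All 7 day values lay above all 1 day values. The call was lost without Sham-GA 7 days replicate 3 (adjusted p = 0.0902), without Sham-GA 1 day replicate 3 (0.0855), with only the groups compared (0.0828), with the variance filter and with the 1.5 fold minimum. Cox6a1, the other general form, was 10.41, 10.37 and 9.91 at 1 day and 10.66, 10.73 and 10.85 at 7 days, also apart (0.52 ± 0.18, adjusted p = 0.085). The muscle forms Cox8b and Cox6a2 differed by -0.16 ± 0.28 and -0.08 ± 0.16.

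The change of the general minus the muscle form was 0.60 for both pairs, with the apart array of the 1 day group included. In 4 members the 7 day arrays all lay above the 1 day arrays (10.5% of all genes), all 4 in complex IV, and in 2 they all lay below (18.1% of all genes). Over the same interval Thy1 and Col1a1, fibroblast markers, rose by 3.71 and 2.89, and the mean level of the 12 fibroblast markers rose as well. The mean fibroblast level was -1.08 to -0.67 at 1 day and 0.84 to 1.25 at 7 days, and no marker was at 0. The mean macrophage level was -0.80 to 0.35 at 1 day and -0.51 to 0.42 at 7 days, with overlap and a higher mean at 7 days. Whether these cells carry the Cox8a signal was not tested. Up to 3 called genes of each other list are named next, in a comparison where 10.3% of all genes passed the test. They do not describe their lists as a whole. Of the regulators, Tfam, which packs and transcribes mitochondrial DNA, fell by 0.93 (adjusted p = 0.0199). Tfb1m, a methyltransferase of mitochondrial ribosomal RNA, fell by 0.55 (adjusted p = 0.0178). Of the assembly factors, Coa7 fell by 0.90 (adjusted p = 0.0217) and Sco1, a copper chaperone for complex IV, by 0.68 (adjusted p = 0.0161), and of the citric acid cycle genes Suclg2 fell by 0.57 (adjusted p = 0.0358).

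The last comparison asked whether stimulation and overload, both of which load the soleus, differed in their effect on these genes. The ES effect minus the GA effect had a median over the members of 0.28 at 1 day, 0.73 at 3 days and 0.34 at 7 days. No member passed the test at any time. All-gene calls were 0.0554% at 1 day and 0% at 3 and at 7 days, and the lowest adjusted p of a member was 0.154, 0.477 and 0.999 in that order. At 3 days 57 members were higher under ES at an unadjusted p under 0.05, where 5.22% of all genes were. The medians were 0.78 for complex I, 0.86 for II, 0.66 for III, 0.47 for IV and 0.64 for V. Atp5mc1 had the highest difference, 1.36 ± 0.42, followed by Cox5b at 1.30 ± 0.30, while Cox8a and Cox6a1 had -0.02 ± 0.16 and 0.16 ± 0.25.

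The 2 effects come from different animals, transected and with the tendon cut in the SCI rats too in one experiment and with an intact cord in the other, and the ES effects at all 3 times share the SCI arrays. Without SCI replicate 2 the median at 3 days was 0.55, with 75 of 76 genes above 0. With both apart sham arrays left out, 2 members were called higher under ES at 1 day and 5 at 3 days, where 1.25% and 0.228% of all genes were, and none at 7 days.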

How the data were processed

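Soleus RNA of 33 rats was measured on an array per rat, and the 11 groups of 3 were taken from the sample labels. The deposited values are log2 expression values that the authors made by RMA in the oligo package (background correction, quantile normalization, then a median polish over the probes of a transcript cluster); tool versions are not given in the sources used here. Quantile normalization makes values relative to each array, so a shift common to all genes would not be seen. Of its 29214 rows, whose values run from 2.10 to 14.26, 15310 carry 1 gene symbol (14506 genes), and 323 with several and 13581 with none were left out. For 11 members with more than 1 row the brightest was used. The number of animals sets the precision, and p values reflect the spread between them.

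Differences between group means were estimated by limma 3.58.1 (lmFit, eBayes; R 4.3.3) over the 15 arrays of the SCI experiment or the 18 of the GA experiment, and over all 33 for ES minus GA. Rows with a mean of at least 3 were tested, which all 76 members passed. A gene was called at a Benjamini-Hochberg adjusted p under 0.05 over all genes tested, without a fold minimum. The mean GA effect is the mean of the 3 differences at 1, 3 and 7 days. Scripts were tested on simulated data. Pandas 2.3.3, numpy 2.4.6 and matplotlib 3.10.9 in Python 3.11.15 were used for the level of each complex, the promoters and the plots.

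The members, the lists and the tests were chosen with earlier results of these data known. The named genes are the called members, the highest and lowest of each complex in SCI and in the mean GA effect, the form pairs, the Sdh subunits, the core of complex I and up to 3 called genes of each other list. Ndufa5, Ndufa9, Ndufb2, Uqcrc1 and Perm1 were added to them once the values were known. Alternatives changed the filter, the normalization, the arrays in the fit, the prior, the row of a gene or the member list. Others added a fold minimum of 1.5 or a block for the replicate number, or dropped single arrays. The methods' test was also run, without its variance filter. A text deposited with the series gives 1, 2 and 7 days and ablation on both sides; the days of the sample labels and the left side of the methods were used.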

Additional observations from a re-analysis of the deposited data

Results flagged for a closer look

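The mean level of the members, relative to its own mean over an experiment, moved in opposite directions under ES and GA in every single array at the later times. Each SCI-ES array lay above the SCI mean and each GA array below the Sham-GA mean of its day. The difference in mean level, ES change minus GA change, was 0.68 at 3 days and 0.32 at 7 days over all 76 genes. For complex I it was 0.77 and 0.34, for complex III 0.67 and 0.35, for complex IV 0.45 and 0.25, and for complex V 0.68 and 0.29. For complex II every array moved this way at 7 days only, with 0.45.

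The difference in mean level was not tested, since genes of a complex are not replicates. In the test of single genes no member was called at either time. The low level of SCI replicate 2 moves with this pattern: without it 2 of 3 SCI-ES arrays at 3 days and 1 of 3 at 7 days lay above the SCI mean over all members.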

How the results depend on the processing

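With all arrays, the count of members called stayed at 0 in 14 comparisons under every alternative to the limma fit. The median over the members kept its side of 0 under all alternatives run in 12 of the 15 comparisons. The exceptions were small medians: SCI-ES 1 day against SCI was -0.09 without SCI replicate 2 and -0.08 without SCI-ES 1 day replicate 2, SCI-ES 7 days against 1 day was -0.08 without SCI-ES 1 day replicate 1, and the GA effect at 7 days minus that at 1 day was -0.02 with quantile normalization again, -0.01 with arrays centred on their medians, -0.02 without Sham-GA 7 days replicate 3 and -0.05 without Sham-GA 1 day replicate 2. The 1 call of Sham-GA 7 days against 1 day, Cox8a, was lost (0 members) with the variance filter, with the 1.5 fold minimum and with only the groups compared, and became 2 with one fit of all arrays. The methods' test was run without its variance filter, at an unadjusted p under 0.05 for the GA term and 1.5 fold at that day. It called 21 members at GA 3 days, all lower. The share of all genes under that rule is not given here, so this count is not read as a result about the members. With each array left out in turn, the count ranged from 0 to 44 at GA 3 days and from 0 to 34 in the mean GA effect. The 44 and the 34 came without Sham-GA 3 days replicate 2, where 10.7% and 10.4% of all genes were called. The count ranged from 0 to 2 for Sham-GA 7 days against 1 day (2 without Sham-GA 7 days replicate 1, 7.89% of all genes). It ranged from 0 to 1 for all transected groups (1 without SCI-ES 1 day replicate 2, 3.6% of all genes). For ES minus GA at 1 day it also ranged from 0 to 1 (1 without Sham-GA 1 day replicate 1, 0.706% of all genes). The Cox8a call was lost without Sham-GA 7 days replicate 3 or Sham-GA 1 day replicate 3. Without both apart sham arrays, a setting added after the data were seen, the counts are given with the share of all genes called in either direction. They were 6 for GA at 1 day (5.84%), 58 at 3 days (18.3%) and 63 in the mean (25%). They were 2 for Sham-GA 7 days against 1 day (10.4%), and 2 (1.87%) and 5 (0.381%) for ES minus GA at 1 and 3 days. The replicate numbers did not pair the animals: in 0 of 9 comparisons did every same-numbered pair correlate above 0.1, with values from -0.72 to 0.61. With the replicate block the count was 0 in 14 comparisons and 1 for Sham-GA 7 days against 1 day. The 3 animals per group limit what could be called.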
